A study of Mus musculus with 10 samples.

Results

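The Rab genes encode small GTPases, each kept to its own set of membranes, that direct the budding, transport, tethering and fusion of vesicles. They were taken by name: protein-coding genes whose symbol is Rab, a number, and at most a letter from a to d and 1 more digit, with 1 principal transcript for each. This gave 59 genes of the 26227 represented in the files, 17251 of them protein-coding. The 41 Rab genes with at least 1 RPKM (reads counted on a transcript, scaled to its length and to sequencing depth) in at least 2 libraries were tested, among 13004 such genes. The other 18 stayed below 1 RPKM in every library, the highest being Rab17 at 0.979.

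A Rab protein is prenylated with the help of an escort protein, switched on by an exchange factor (GEF) that loads GTP, and in that state binds effectors such as tethers and motors. A GTPase-activating protein (GAP) switches it off, and GDP dissociation inhibitors (GDI) take it off the membrane. Differentiating myeloid cells build granules, phagosomes and lysosomes, which carry members such as Rab27a, Rab5a and Rab7.

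The cells were ER-Hoxa9-Lys-GFP cells from C57BL/6 mice, a myeloid progenitor line in culture in which Hoxa9 is fused with an estrogen receptor domain and so works while estradiol (E2) is present. All groups carry this fusion and, by name, a lysozyme GFP reporter, and all grew with serum and stem cell factor conditioned medium. RNA was sequenced in 10 libraries, 2 in each of 5 groups. In the untreated group E2 was kept. The 24 h, 40 h and 72 h groups lost E2 for that long and then had it back for 96, 80 and 48 h. The 120 h group lost E2 for 120 h with none returned. The labels do not say whether the libraries of a group came from separate cultures, or how many clones the line holds, so p-values reflect only how far these samples spread, possibly a technical spread. The question posed by the design is how far cells return to the starting state when E2 is restored.

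The library totals behind the RPKM, recovered from the steps of the values, were 173620000 to 204390000 reads, and 1 read on a transcript of 2 kb was worth 0.00245 to 0.00288 RPKM. The 2 libraries of the 120 h group differed from each other more than those of any other group (a chi-square of 399 per degree of freedom across genes, against 34.4 to 96.9). Markers of the progenitor state summed to 1593 and 1611 RPKM in the untreated libraries and to 174 and 201 at 120 h. Of these 7 genes, 6 were lower at 120 h than untreated and 1 higher (52.7% and 27.5% of all genes). The 11 neutrophil granule and surface genes summed to 2337 and 2763, then 6411 and 6449 at 72 h, then 21500 and 22360 at 120 h. Against untreated cells, 9 of the 11 were higher at 120 h and 1 lower. Against the 72 h group, 8 were higher at 120 h and 3 lower (26.4% and 51% of all genes). A list of 7 monocyte and macrophage genes summed to 119 and 121 in the untreated libraries and 1312 and 1374 at 120 h. Of the 6 tested, 5 were higher at 120 h than untreated and 1 lower (27.5% and 52.7% of all genes). The sum of mast cell, basophil and eosinophil genes was highest at 72 h (1369 and 1545, against 209 and 237 untreated and 310 and 536 at 120 h), with Fcer1a below 1 RPKM throughout. The list was split, since 3 of the 6 tested were called higher at 72 h than untreated and 3 lower (21.6% and 22.3% of all genes). Lymphoid genes summed to 70.0 and 73.4 in the untreated libraries and to 2.69 and 2.77 at 120 h, with Cd3e below 1 RPKM in all libraries. Dendritic cell genes, a list that shares Flt3 with the progenitor markers, had 4 of the 6 below 1 RPKM in every library. They summed to 251 and 258 in the untreated libraries, 27.6 and 30.1 at 72 h and 3.39 and 5.99 at 120 h. Of the 2 tested, Flt3 was lower at 120 h than untreated and the other was higher (52.7% and 27.5% of all genes). Stromal and epithelial genes went from 69.3 and 85.4 to 25.5 and 37.1 (3 of 5 in the files below 1 RPKM in every library). Of the 7 erythroid and megakaryocyte genes, 5 were below 1 RPKM in every library, and the 7 summed to at most 18.5 in untreated cells and 18.9 at 120 h. The part of these shifts in the Rab results was not tested, and in bulk RNA fewer cells of a type and less RNA per cell cannot be told apart.

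The summed level of the 59 Rab genes was highest at 120 h. It was 1038 and 1041 RPKM in the untreated libraries, 1021 and 1019 at 24 h, 1002 and 1002 at 40 h, 1117 and 1121 at 72 h, and 1617 and 1585 at 120 h. The 120 h libraries stood above all others, and their mean was 1.54 times that of the untreated group, or 2.10 times after median-of-ratios scaling of the libraries. The share of all protein-coding RPKM held by Rab genes was 0.235% ± 0.00203 (SD, n = 2) in untreated cells and 0.400% ± 0.0246 at 120 h. The makeup of the sum also moved. Late endosome and lysosome members held 15.8% ± 0.156 of it in untreated cells and 20.8% ± 0.280 at 120 h, whereas ER and Golgi members went from 29.6% ± 0.324 to 24.9% ± 1.24 and recycling endosome members from 15.5% ± 0.257 to 11.7% ± 0.158. These values are given as a description, with no test. Rab7 was the most abundant member in every library but those of the 72 h group, where Rab1b was.

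**Figure D1:**
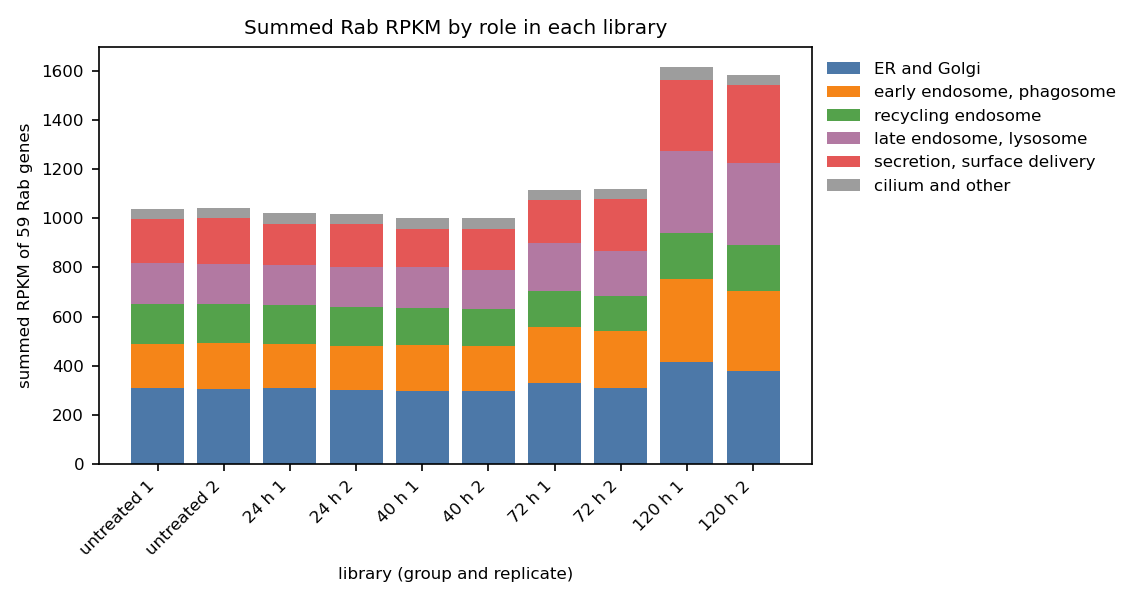
Bars give the summed RPKM of the 59 Rab genes in each of the 10 libraries, stacked by the role of the member. The 8 bars from untreated to 72 h lie between 1002 and 1121 RPKM and the 120 h bars reach 1617 and 1585, with the late endosome and lysosome block growing from 164 to 333 RPKM.

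Fold changes below are log2 differences of RPKM + 1 with standard errors, which understate the change of low genes. A call means an adjusted p under 0.05 in limma, with the Benjamini-Hochberg (BH) adjustment taken over all 13004 genes, and "rose", "fell", "higher" and "lower" in counts refer to calls. All comparisons with untreated cells share the same 2 control libraries. Each gene had 1 estimate of spread over the 5 groups, so its standard error is the same in every comparison. Since the 120 h libraries spread most across genes, standard errors may be too small for 120 h comparisons and too large for the others.

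After 120 h without E2, 24 of the 41 Rab genes rose and 7 fell. Of these, Rab19 and Rab20 passed the filter only through the 120 h libraries, and Rab36 only through untreated and 24 h libraries, so their directions were given by the filter. Of all genes tested, 80.3% were called in this comparison, 27.5% higher and 52.7% lower, so most Rab calls were upward where most calls over the whole table were downward. The median log2 fold change was 0.39 over the Rab genes and -0.36 over all genes. With median-of-ratios scaling, which brings the median of all genes to 0.00, 33 Rab genes were called higher and 4 lower, beside 5127 and 5018 of all genes (3582 and 6858 without it), and the Rab median was 0.82. Changes of at least 1 on the log2 scale were called upward in 10 Rab genes (14.4% of all genes) and downward in 3 (25.3% of all genes).

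In the 72 h group 10 Rab genes stood higher than in untreated cells and 9 lower, where 43.9% of all genes were called, 21.6% higher and 22.3% lower. The 9 include Rab36, whose direction was given by the filter. Changes of at least 1 on the log2 scale were called upward in 3 members (3.78% of all genes) and downward in 5 (5.57%). The Rab median was 0.07 and that of all genes 0.02. The 40 h group, with 80 h of restored E2, had 1 Rab gene higher (Rab32) and 4 lower (Rab3d, Rab4a, Rab37 and Rab43), where 0.93% of all genes were called higher and 3.35% lower (4.28% in all). None of these 5 calls held under every alternative setting and left-out library. No Rab gene was called at 24 h, where 0% of all genes were called by limma and none of the Rab genes by limma voom on recovered reads. At an unadjusted p under 0.05 in limma, 2 of the 41 Rab genes (Rab3d and Rab37) passed at 24 h, as did 365 of all 13004 genes (2.81%). The share over all genes was below that threshold itself, so these 2 are not read as changes. Against the 40 h group, the 72 h group had 8 Rab genes higher and 8 lower, where 13.9% of all genes were called higher and 13.8% lower (27.7% in all). Against the 72 h group, the 120 h group had 27 higher and 3 lower, where 77.4% of all genes were called, 26.4% higher and 51% lower. The 27 include Rab19 and Rab20, whose directions were given by the filter.

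**Figure D2:**
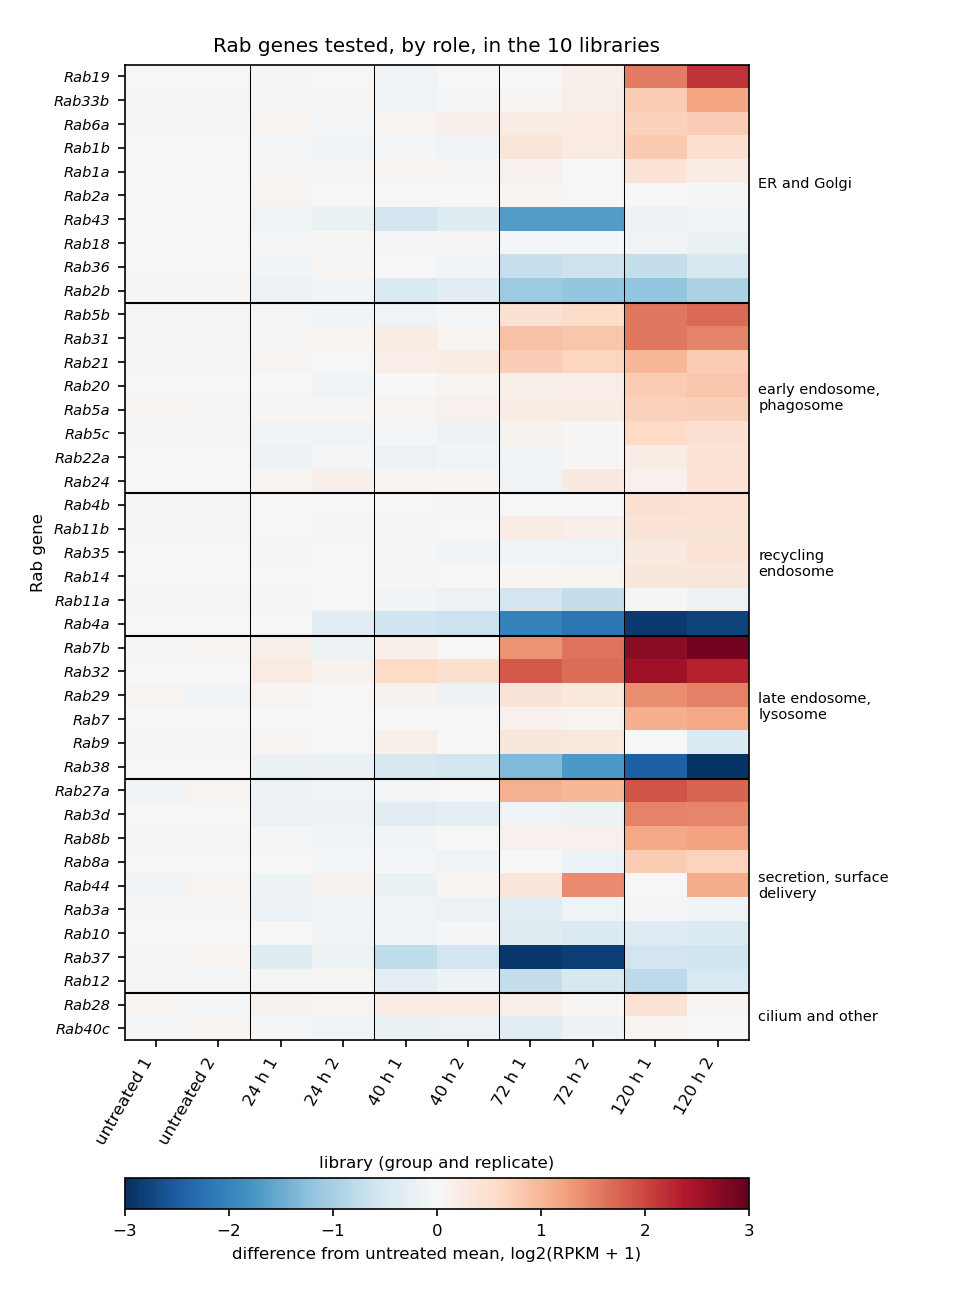
Each cell is the difference of log2(RPKM + 1) from the mean of the untreated libraries, for the 41 tested Rab genes (rows, by role and then by 120 h fold change) in the 10 libraries (columns). Columns at 24 h are near 0, Rab4a and Rab38 darken from 40 h to 120 h, Rab32 and Rab7b redden from 72 h on, and Rab37 and Rab43 are lowest at 72 h.

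Between them these calls sort the members into a few courses across the groups. The groups are separate arms and not successive time points, and a step is a difference between 2 of them. The 72 h group had 48 h of restored E2 and the 120 h group none, so length of withdrawal and return of E2 cannot be told apart there. From untreated to 72 h and again from 72 h to 120 h, 9 members rose (Rab1b, Rab5a, Rab5b, Rab6a, Rab7b, Rab27a, Rab29, Rab31 and Rab32), a course followed by 7.76% of all genes. Rab4a and Rab38 fell in both steps, as did 10% of all genes. Rab11a, Rab37 and Rab43 were lower at 72 h than in untreated cells and higher at 120 h than at 72 h, as were 6.8% of all genes. No member was higher at 72 h than in untreated cells and lower at 120 h than at 72 h, the course of 9.87% of all genes. The mast cell, basophil and eosinophil marker sum also had that course. The calls of neighbouring steps share the 72 h libraries. Several of the smaller calls were lost in fits with 1 library fewer, some of them at an unchanged fold. The 72 h calls of Rab1b (log2 fold change 0.31 with all libraries), Rab5a (0.23), Rab6a (0.24) and Rab29 (0.35) were lost without untreated replicate 2 (0.30, 0.16, 0.21 and 0.28) and without either 72 h library, where Rab5a still had 0.23 and Rab6a 0.24 or 0.23. That of Rab1b was also lost, at the same 0.31, without any 1 library of the 24 h or 40 h group. The step of Rab1b from 72 h to 120 h (0.34) was lost without 72 h replicate 2 (0.28), and the 120 h calls of Rab1a and Rab22a (both 0.31) without untreated replicate 2 (0.29 and 0.33).

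For 3 members that rose in both steps and had the largest 72 h changes among those with an entry in the RefSeq promoter table (GRCm38.p6), the sequence before the start site is shown, as the stretch to which the data on members that move together bear. Each is written 5′ to 3′ on the strand of the gene, in lower case, with matches to the searched motifs in capitals. The Rab32 stretch, chr10:10558266-10558457 on the minus strand, stops at the start of the measured transcript, which lies 58 bases before the RefSeq start. The Rab31 stretch is chr17:65772753-65773002 on the minus strand, and the Rab27a stretch is chr9:73044560-73044809 on the plus strand.
Rab32: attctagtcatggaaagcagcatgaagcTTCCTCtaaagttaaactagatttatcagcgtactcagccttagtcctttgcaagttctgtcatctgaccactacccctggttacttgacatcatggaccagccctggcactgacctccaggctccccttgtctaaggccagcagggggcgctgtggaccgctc
Rab31: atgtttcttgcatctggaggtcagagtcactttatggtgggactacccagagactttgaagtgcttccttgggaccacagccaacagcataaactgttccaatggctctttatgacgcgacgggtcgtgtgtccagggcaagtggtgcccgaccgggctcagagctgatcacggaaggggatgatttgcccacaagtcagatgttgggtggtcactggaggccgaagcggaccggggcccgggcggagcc
Rab27a: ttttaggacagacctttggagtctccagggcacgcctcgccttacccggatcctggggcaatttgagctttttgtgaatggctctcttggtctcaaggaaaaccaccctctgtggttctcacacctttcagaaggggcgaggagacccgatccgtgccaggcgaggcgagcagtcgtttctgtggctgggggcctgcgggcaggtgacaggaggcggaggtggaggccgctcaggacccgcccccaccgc
On both strands of the 250 bases before each start, 3 motifs were searched: the E-box CACGTG, known as the core of lysosomal gene elements, GAGGAA, the core bound by PU.1, and TTNNGCAA, bound by C/EBP factors. Matches of different motifs were counted separately even where they overlap. Windows were found for 48 of the 59 Rab genes, and for none of Rab4a, Rab7b, Rab37 and Rab38. For each Rab gene 1 window was used, that nearest the start of the measured transcript. The shares of all windows count every window, not 1 per gene, so the 2 are not strictly alike. CACGTG was in 4 of the 48 (Rab5a, Rab20, Rab21 and Rab23) and in 6.02% of all 32851 windows of that length. GAGGAA was in 7 (Rab2b, Rab6a, Rab12, Rab13, Rab21, Rab32 and Rab33b) and in 23.3% of all windows, and TTNNGCAA in 3 (Rab1b, Rab29 and Rab40b) and in 9.56%. The Rab32 window held GAGGAA at 2 places counting both strands, 1 of them in the stretch shown (TTCCTC, its reverse complement), and the Rab31 and Rab27a stretches held no match. A match describes the letters only, and the lack of one says nothing of the factor.

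Members of the late endosome, lysosome and lysosome-related organelle had the highest median among the 6 role lists at 120 h. Of the 6 tested, 4 rose at 120 h (27.5% of all genes did), each by at least 1 on the log2 scale (14.4%), Rab38 fell, and Rab9 was not called, with a median log2 fold change of 1.29. Rab7, which moves endosomes on to the lysosome, held 106 and 105 RPKM in the untreated libraries, 105 and 106 at 24 h, 106 and 106 at 40 h, 116 and 112 at 72 h and 227 and 238 at 120 h. The 120 h libraries, close to each other, stood far above the other 8. The log2 fold change of Rab7 was 1.13 ± 0.07 at 120 h (limma, BH-adjusted p = 2.82e-06) and 0.11 ± 0.07 at 72 h, which was not called. Some 16.2% of the 50-base windows of its transcript also occur in other genes, among them the pseudogene Rab7-ps1.

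Rab7b, a relative acting between late endosomes and the trans-Golgi, held 1.17 and 1.35 RPKM in the untreated libraries, 1.53 and 1.01 at 24 h, 1.50 and 1.24 at 40 h, 4.78 and 6.00 at 72 h and 13.8 and 15.9 at 120 h. The 72 h libraries lay above all earlier ones and below both 120 h libraries. Its log2 fold change was 1.50 ± 0.15 at 72 h and 2.81 ± 0.15 at 120 h (limma, BH-adjusted p = 7.17e-07), the largest rise among the members on the scale of RPKM + 1, and its RPKM went from 0.0119 ± 0.00129 to 0.0638 ± 0.00415 of the Rab7 level (SD, n = 2). As a ratio of mean RPKM, its rise was 11.8-fold and that of the scarcer Rab19 was 17.9-fold. Rab29, a trans-Golgi and lysosome member that recruits the kinase Lrrk2, held 5.49 and 4.88 RPKM in the untreated libraries, 5.49 and 5.27 at 24 h, 5.64 and 4.53 at 40 h, 7.09 and 6.67 at 72 h and 15.2 and 16.5 at 120 h. Both 72 h libraries were slightly above the rest of the add-back and untreated libraries, and the 120 h libraries were well above these. Rab29 had log2 fold changes of 0.35 ± 0.11 at 72 h and 1.45 ± 0.11 at 120 h. Rab9, which works in the return from late endosomes to the Golgi, held 14.5 and 13.6 RPKM in the untreated libraries, 18.1 and 17.9 at 72 h and 14.2 and 10.4 at 120 h, and was called lower only between 72 h and 120 h (log2 fold change -0.53 ± 0.13), a call lost with median-of-ratios scaling (-0.11).

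Rab32 and Rab38 are close relatives that deliver cargo to lysosome-related organelles and share the exchange factor built from Hps1 and Hps4. Rab32 was higher and Rab38 lower as withdrawal lengthened. Rab32 held 9.30 and 9.19 RPKM in the untreated libraries, 11.1 and 10.0 at 24 h, 14.6 and 13.4 at 40 h, 36.0 and 31.7 at 72 h and 58.7 and 49.6 at 120 h. It was higher in each later group without overlap, 40 h included, and its log2 fold changes from untreated cells were 0.55 ± 0.11 at 40 h, 1.76 ± 0.11 at 72 h and 2.42 ± 0.11 at 120 h (limma, BH-adjusted p = 0.0301, 6.93e-06 and 2.91e-07). Rab38 held 28.7 and 29.0 RPKM in the untreated libraries, 24.9 and 25.1 at 24 h, 20.5 and 19.5 at 40 h, 11.0 and 8.06 at 72 h and 4.50 and 2.86 at 120 h. Its libraries were lower in each later group, again without overlap, with log2 fold changes of -0.51 ± 0.17 at 40 h, not called, -1.52 ± 0.17 at 72 h and -2.70 ± 0.17 at 120 h (limma, BH-adjusted p = 2.43e-06). The ratio of Rab38 to Rab32 in RPKM was 3.12 ± 0.0495 in untreated cells, 2.37 ± 0.189 at 24 h, 1.43 ± 0.0401 at 40 h, 0.280 ± 0.0363 at 72 h and 0.0672 ± 0.0134 at 120 h (SD, n = 2), so the pair passed from mostly Rab38 to mostly Rab32. Of the exchange factor subunits, Hps4 was not called and held 11.5 and 11.4 RPKM in the untreated libraries, 11.1 and 12.1 at 72 h and 9.53 and 10.6 at 120 h, and Hps1, singled out after its values were seen, had log2 fold changes of -0.23 at 72 h and -0.75 at 120 h.

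Of the 9 secretion and surface delivery members tested, 4 were higher, 3 lower and 2 not called at 120 h, where 80.3% of all genes were called, 27.5% higher and 52.7% lower. Rab27a, which docks granules at the plasma membrane, held 18.6 and 21.1 RPKM in the untreated libraries, 17.9 and 18.5 at 24 h, 19.1 and 19.9 at 40 h, 42.4 and 40.5 at 72 h and 76.0 and 69.2 at 120 h. The untreated, 24 h and 40 h libraries were level, and the 72 h and 120 h libraries rose above them in turn. Rab27a had log2 fold changes of 1.03 ± 0.08 at 72 h and 1.82 ± 0.08 at 120 h (limma, BH-adjusted p = 4e-07). Rab3d, a member on secretory granules, held 20.8 and 21.4 RPKM in the untreated libraries, 18.6 and 19.1 at 24 h, 16.5 and 17.0 at 40 h, 19.7 and 18.9 at 72 h and 60.7 and 59.6 at 120 h. Its lowest libraries were those at 40 h, where it was called lower than in untreated cells (log2 fold change -0.32 ± 0.06, BH-adjusted p = 0.0348), and its 120 h libraries were far above the rest (1.47 ± 0.06, BH-adjusted p = 2.95e-07, both in limma). Unlike Rab27a, Rab3d was not called at 72 h (-0.12 ± 0.06), and whether the 2 genes differed there was not tested.

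Rab8a and Rab8b carry post-Golgi vesicles to the surface. Rab8b held 14.5 and 15.2 RPKM in the untreated libraries, 14.1 and 14.0 at 24 h, 13.9 and 15.1 at 40 h, 16.4 and 16.5 at 72 h and 34.3 and 35.6 at 120 h, with the 120 h libraries far above the rest, and its log2 fold change was 1.18 ± 0.07 there. Rab8a followed with 0.72 ± 0.08, from 19.7 ± 0.0849 to 33.1 ± 1.64 RPKM (SD, n = 2), and neither was called at 72 h. Rab10, a surface delivery member of many cells, was lower at 72 h (-0.40 ± 0.07) and 120 h (-0.41 ± 0.07) alike, but its 120 h difference came to 0.02 with median-of-ratios scaling. Rab12, a member in receptor degradation, was lower by similar amounts at both times (-0.60 ± 0.13 and -0.63 ± 0.13). Its 120 h call was also lost with that scaling (-0.24).

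Rab37, a member on secretory granules of mast cells, was lowest in the 72 h group. It held 27.7 and 30.3 RPKM in the untreated libraries, 22.3 and 26.0 at 24 h, 16.8 and 19.2 at 40 h, 3.06 and 3.20 at 72 h and 19.1 and 18.9 at 120 h. The 72 h libraries were far below every other library, and the 120 h libraries lay in the range of the 40 h group, under untreated cells. Log2 fold changes from untreated cells were -0.66 ± 0.10 at 40 h, -2.86 ± 0.10 at 72 h (limma, BH-adjusted p = 4.37e-07) and -0.59 ± 0.10 at 120 h, the last not called with median-of-ratios scaling (-0.16). From 72 h to 120 h the log2 fold change was 2.27 ± 0.10 (limma, BH-adjusted p = 7.05e-07). The 72 h low of Rab37 fell in the group where the mast cell, basophil and eosinophil marker sum was highest. Of the 6 tested genes in that sum, 3 were higher there than untreated and 3 lower (21.6% and 22.3% of all genes). The part of that sum in the result was not tested.

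Rab44, a long member with calcium-binding hands known from mast cell granule release, had the highest mean RPKM of this role list over 10 libraries. By group mean, however, Rab10 was above it in the untreated, 24 h and 40 h groups, and Rab27a and Rab3d at 120 h. Rab44 held 29.3 and 33.1 RPKM in the untreated libraries, 28.0 and 33.8 at 24 h, 27.2 and 32.4 at 40 h, 40.4 and 85.2 at 72 h and 31.4 and 68.1 at 120 h. Replicate 2 was the higher library in all 5 groups, by less in the first 3, while in the 72 h and 120 h groups replicate 1 stood near or somewhat above the untreated level and replicate 2 far higher. Gaps as large as these 2 were found in 0.631% and 1.08% of all tested genes. Across genes, the deviations of same-numbered libraries in these groups had a correlation of 0.639, given as a description. Its log2 fold changes of 0.89 ± 0.40 and 0.56 ± 0.40 were not called. Rab3a, the synaptic vesicle member, stayed between 1.30 and 1.94 RPKM and was not called in any comparison.

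Among early endosome and phagosome members, 7 of the 8 tested rose at 120 h and none fell (27.5% and 52.7% of all genes), with a median log2 fold change of 0.75. Rab20 is 1 of these 7, with its direction given by the filter. In the 72 h group 4 of the 8 were higher than in untreated cells (Rab5a, Rab5b, Rab21 and Rab31), as were 21.6% of all genes. The 3 Rab5 genes drive early endosome fusion, and each rose at 120 h. Rab5c, the most abundant, held 78.3 and 82.2 RPKM in the untreated libraries, 75.5 and 75.7 at 24 h, 77.6 and 71.9 at 40 h, 85.9 and 82.0 at 72 h and 121 and 109.8 at 120 h, with the 120 h libraries above the other 8, and a log2 fold change of 0.52 ± 0.08 at 120 h. Rab5b held 14.8 and 15.5 RPKM in the untreated libraries, 14.4 and 14.2 at 24 h, 13.8 and 14.5 at 40 h, 21.1 and 22.8 at 72 h and 47.1 and 51.5 at 120 h. Its untreated, 24 h and 40 h libraries were level and its 120 h libraries far above the 72 h ones. The log2 fold change of Rab5b was 0.51 ± 0.08 at 72 h and 1.64 ± 0.08 at 120 h (limma, BH-adjusted p = 4.2e-07), and that of Rab5a was 0.23 ± 0.07 and 0.70 ± 0.07. The RPKM ratio of Rab5b to Rab5a thus went from 0.811 ± 0.0826 in untreated cells to 1.58 ± 0.0711 at 120 h (SD, n = 2). Rab5b shares 13.0% of its windows with the pseudogene Gm13991, which held at most 4.40 RPKM.

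Rab31, which serves traffic between the trans-Golgi and endosomes, held 17.4 and 18.5 RPKM in the untreated libraries, 18.5 and 18.8 at 24 h, 21.2 and 18.9 at 40 h, 33.8 and 32.4 at 72 h and 55.2 and 52.0 at 120 h, in a rise over both later groups with no overlap between them. Rab31 had log2 fold changes of 0.85 ± 0.08 at 72 h and 1.53 ± 0.08 at 120 h (limma, BH-adjusted p = 7.25e-07). Rab21, a member in integrin uptake, was higher in the 72 h group too (0.68 ± 0.09, against 0.89 ± 0.09 at 120 h), and its step from 72 h to 120 h was not called (0.20 ± 0.09). Rab20, a phagosome member, passed the filter only through the 120 h group, where it held 1.27 and 1.41 RPKM against 0.369 and 0.326 in untreated cells. An antisense transcript covers 25.6% of its exons. Rab22a rose by 0.31 ± 0.10 at 120 h, a call that did not survive in 5 of its 21 alternatives. Rab24, linked to autophagy, was not called (0.29 ± 0.14), and 66.4% of its exons lie opposite Prelid1, which is far more abundant (196 to 263 RPKM), so without known strand use its reads cannot be told from those of Prelid1.

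Of the 6 recycling endosome members tested, where 27.5% of all genes rose and 52.7% fell, Rab4a fell, Rab11a was not called and 4 were higher at 120 h with log2 fold changes from 0.34 (Rab14) to 0.45 (Rab4b), and none was higher at 72 h. Rab14, a Golgi and endosome member and the most abundant here, held 47.2 and 46.6 RPKM in the untreated libraries, 46.8 and 46.5 at 24 h, 45.1 and 47.0 at 40 h, 49.1 and 49.5 at 72 h and 59.8 and 59.3 at 120 h, with the 120 h libraries above the rest. Rab4a, of the fast return route to the surface, held 8.79 and 8.78 RPKM in the untreated libraries, 8.79 and 6.75 at 24 h, 5.47 and 5.22 at 40 h, 1.40 and 1.17 at 72 h and 0.329 and 0.424 at 120 h. The 40 h libraries lay under all untreated and 24 h libraries, and those at 72 h and 120 h were lower still, at 120 h below 1 RPKM. Its log2 fold changes were -0.63 ± 0.12, -2.10 ± 0.12 and -2.83 ± 0.12 at 40 h, 72 h and 120 h (limma, BH-adjusted p = 0.0280, 4.92e-06 and 2.39e-07).

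The sister gene Rab4b went the other way (0.45 ± 0.06 at 120 h, -0.01 ± 0.06 at 72 h), and the RPKM ratio of Rab4a to Rab4b went from 0.331 ± 0.0115 to 0.0103 ± 0.00193 (SD, n = 2). Rab4b shares 80.3% of its windows with the coding gene Gm21983 on the same strand, so the level of Rab4b alone is uncertain. Rab11a and Rab11b mark the slow recycling route. Rab11a was lower at 72 h (-0.64 ± 0.08) and not called at 120 h (-0.11 ± 0.08), and Rab11b was not called at 72 h and was higher at 120 h (0.39 ± 0.07). Rab35, also of the fast route, was 0.35 ± 0.07 higher at 120 h. Rab11b shares 14.0% of its windows with other genes, among them the pseudogene Rab11b-ps2.

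**Figure D3:**
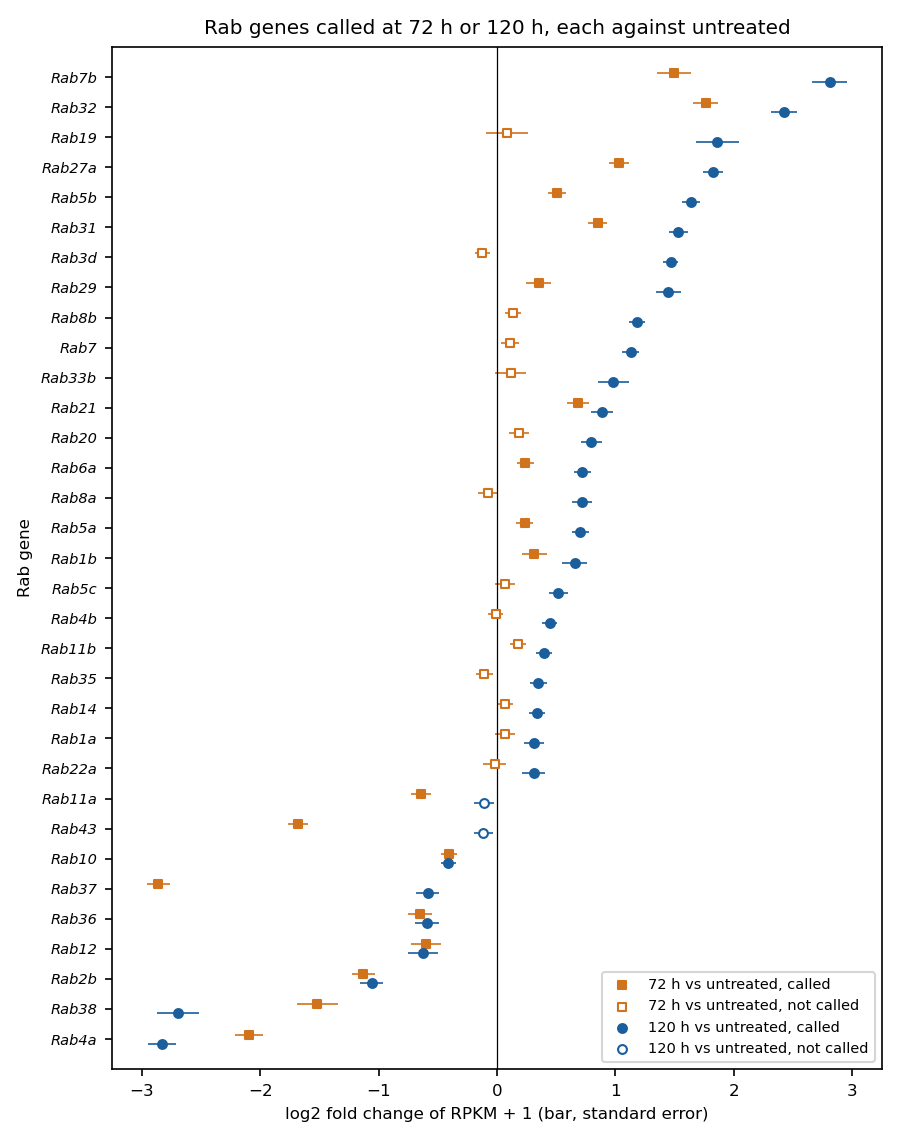
Points give the log2 fold change of RPKM + 1 from untreated cells at 72 h (squares) and 120 h (circles) for the 33 Rab genes called in either, with bars of 1 standard error and open symbols where not called. Rab7b and Rab32 lie furthest to the right at both times, Rab4a and Rab38 furthest to the left at 120 h, and Rab37 and Rab43 are far lower at 72 h than at 120 h.

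Of the 10 ER and Golgi members tested, 5 were higher and 2 lower at 120 h (27.5% and 52.7% of all genes), and 2 higher and 3 lower at 72 h, near the shares of all genes (21.6% and 22.3%). Rab19, 1 of the 5 higher at 120 h, and Rab36, among the lower at both times, had directions given by the filter. Rab1b, of ER to Golgi transport, held 97.0 and 95.0 RPKM in the untreated libraries, 93.4 and 90.3 at 24 h, 92.1 and 88.7 at 40 h, 125 and 114 at 72 h and 167 and 138 at 120 h, with the 72 h and 120 h libraries above the rest. Rab1b had log2 fold changes of 0.31 ± 0.10 at 72 h and 0.66 ± 0.10 at 120 h. Its partner Rab1a rose by 0.31 ± 0.09 at 120 h, and the retrograde Golgi member Rab6a by 0.72 ± 0.07, with 22% of Rab6a exons opposite Mrpl48. Rab2a and Rab18 were not called in any of the 6 comparisons, with 120 h log2 fold changes of -0.01 ± 0.07 and -0.15 ± 0.07.

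Rab43, a Golgi member, held 25.8 and 25.8 RPKM in the untreated libraries, 24.0 and 22.5 at 24 h, 17.4 and 19.9 at 40 h, 7.33 and 7.36 at 72 h and 23.0 and 24.5 at 120 h. It was lower at 40 h and lowest at 72 h, and its 120 h libraries were near the 24 h ones. The log2 fold change from untreated cells was -1.68 ± 0.08 at 72 h (limma, BH-adjusted p = 2.12e-06) and -0.12 ± 0.08 at 120 h, not called, and it was 1.57 ± 0.08 from 72 h to 120 h. The annotation places 90.4% of its exons within Gm45140 on the same strand, so reads of either cannot be separated. Rab2b, a Golgi member, held 3.74 and 4.01 RPKM in the untreated libraries, 3.31 and 3.57 at 24 h, 2.57 and 2.94 at 40 h, 1.28 and 1.17 at 72 h and 1.18 and 1.51 at 120 h. Its 72 h and 120 h libraries overlapped, both far below untreated cells (-1.13 ± 0.10 and -1.06 ± 0.10 as log2 fold changes), and 70.9% of its exons lie opposite Gm43766.

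Rab19 held 0.177 and 0.205 RPKM in the untreated libraries, 0.230 and 0.177 at 24 h, 0.108 and 0.176 at 40 h, 0.196 and 0.332 at 72 h and 2.48 and 4.37 at 120 h. It passed the filter through the 120 h group alone, so its 120 h log2 fold change of 1.86 ± 0.18 had to be upward. Rab33b, which binds the autophagy protein Atg16l1, rose by 0.98 ± 0.13, from 1.88 ± 0.0884 to 4.74 ± 1.17 RPKM (SD, n = 2). Rab36 entered the test through untreated and 24 h libraries just over 1 RPKM and was lower at 72 h and 120 h (-0.65 ± 0.10 and -0.59 ± 0.10). Of the small remaining list, Rab28, a cilium member, held 34.8 and 31.7 RPKM in the untreated libraries, 35.8 and 35.2 at 24 h, 39.5 and 38.8 at 40 h, 37.2 and 34.1 at 72 h and 45.1 and 34.5 at 120 h and was not called. Rab40c, part of a ubiquitin ligase, was called only from 72 h to 120 h (0.28 ± 0.09).

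The genes that run the Rab cycle were read from 5 further lists. Over all genes at 120 h, 27.5% were called higher and 52.7% lower, with a median log2 fold change of -0.36. Among exchange factors, 22 of 33 tested were higher at 120 h and 8 lower, with a median of 0.61. Rin2, a factor for Rab5 proteins, held 0.0340 and 0.0180 RPKM in the untreated libraries, 0.554 and 1.05 at 72 h and 14.1 and 22.1 at 120 h. It had the largest rise of the list on the scale of RPKM + 1 (log2 fold change 4.19 ± 0.20, limma BH-adjusted p = 4.22e-07). Rin2 would not have passed the filter without the 120 h libraries, so the direction of this call was given by the filter. At 120 h the 3 Rab5 genes and Rin2 were all higher, with this limit for Rin2. Dennd1c and Dennd2a of the DENN family rose by 2.22 ± 0.23 and 2.23 ± 0.14. Dennd2a passed the filter only through the 120 h libraries (3.40 and 4.98 RPKM, against 0.123 and 0.060 untreated), so its direction was given by the filter. Rin2 and Dennd2a are both among the 22 counted as higher. Sbf1 and Hps4 were the most abundant of the factors not called, at -0.17 ± 0.12 and -0.17 ± 0.08.

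Of the GAPs, 12 of 35 were higher and 16 lower, shares near those of all genes, with a median log2 fold change of -0.13. Tbc1d8 rose from 2.38 and 2.61 to 24.2 and 41.0 RPKM (3.22 ± 0.22) and Tbc1d2b by 1.62 ± 0.15. Tbc1d16, known to act on Rab4a, dropped from 4.73 and 4.93 to 0.775 and 0.496 RPKM (log2 fold change -1.84 ± 0.11), and Tbc1d31 had -1.58 ± 0.11. Tbc1d15 was not called (-0.08 ± 0.09). Tbc1d10c, also not called at 120 h (0.08 ± 0.19), shared the 72 h low of Rab37 and Rab43: it held 35.9 and 35.6 RPKM in the untreated libraries, 32.6 and 33.6 at 24 h, 21.6 and 24.0 at 40 h, 5.37 and 7.64 at 72 h and 31.4 and 45.8 at 120 h.

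Of the effectors, 17 of 38 were higher and 7 lower at 120 h, against 27.5% and 52.7% of all genes, with a median log2 fold change of 0.18. Lrrk2, the kinase of several Rab proteins that Rab29 recruits, went from 1.70 and 1.63 RPKM to 2.85 and 3.52 at 72 h and 22.1 and 38.2 at 120 h (log2 fold change 3.50 ± 0.22, limma BH-adjusted p = 2.03e-06). Its 120 h libraries differed from each other but both lay far above the rest. Rab11fip1, an adaptor of Rab11, rose by 2.09 ± 0.18, Myo5a, the myosin that carries Rab27a organelles, by 1.78 ± 0.18, and Plekhm1, a Rab7 adaptor at the lysosome, by 1.71 ± 0.11. Vps41 and Inpp5b were not called (-0.11 ± 0.07 and -0.21 ± 0.10). The effectors that were lower at 72 h than in untreated cells, and higher at 120 h than at 72 h, were Mical1, Rab11fip5, Rilpl1, Sytl1 and Unc13d. They were singled out after their values were seen. Sytl1 and Unc13d bind Rab27a at granules, and their log2 fold changes from untreated cells were -0.72 and -0.49 at 72 h and 0.50 and 0.47 at 120 h, while Rab27a was higher at both times.

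Chaperones and prenylation genes showed 3 of 9 higher and 3 lower, against the same 27.5% and 52.7%. Rabif rose by 1.08 ± 0.08 and Chm, an escort protein, by 0.96 ± 0.09. Rabggtb, a subunit of the prenylating enzyme, dropped from 31.4 and 34.3 to 15.1 and 14.8 RPKM at 120 h (-1.08 ± 0.11) and was slightly higher at 72 h (0.37 ± 0.11). Gdi2, by far the most abundant of the list, was not called (-0.15 ± 0.10), nor was Rabac1 (-0.23 ± 0.10). Rab-like genes that the name rule leaves out showed 1 of 6 higher, Cracr2a (1.24 ± 0.17), and 5 lower, among them the cilium transport genes Ift27 (-1.64 ± 0.25), Rabl2 (-1.59 ± 0.09) and Ift22 (-1.27 ± 0.09). The median of these 6 was -1.06.

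**Figure D4:**
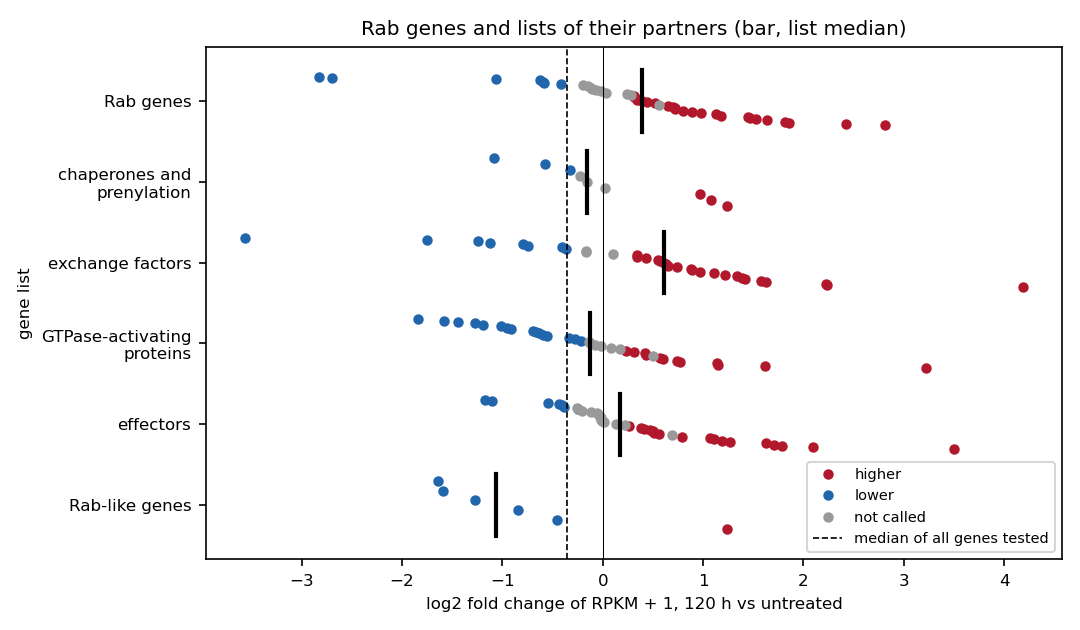
Each point is the log2 fold change of RPKM + 1 at 120 h from untreated cells for a tested gene of the Rab genes and 5 lists of partners, red where called higher, blue where called lower and grey where not called. Black bars mark list medians and the dashed line the median of all genes (-0.36), and the medians of Rab genes (0.39) and exchange factors (0.61) lie to its right and that of Rab-like genes (-1.06) to its left.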

How the data were processed

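The authors deposited RPKM values per Ensembl transcript, 1 table per library, per the file headers. The submitters' processing notes name STAR and the build GRCm38. No source used here gives the counting program, annotation release, low-value filter or strand use. Identifiers were matched to GENCODE M21 (77720 of 79535 transcripts, 97.7%), and each gene was represented by its principal transcript. Values taken as log2(RPKM + 1), for genes reaching 1 RPKM in 2 or more libraries, were fitted with limma 3.58.1 (R 4.3.3, moderated test with mean-variance trend, 2-sided) on group over all 10 libraries, with BH adjustment over 13004 genes. Library denominators of 173620000 to 204390000 reads were recovered from the value steps (100% of tested values whole within 0.05 reads). The fit was tested on simulated data. The Rab genes, role and partner lists were chosen with earlier results of these data known. Values in every library were given for members called with a log2 fold change of 1 or more in either direction (mean RPKM of at least 5 for the 120 h comparison), and for the top member of each role list. Partner lists show up to 4 called and 2 uncalled members. Motifs other than CACGTG were added after the files were seen. Planned protein features were not analysed here. A few genes of the partner and marker lists are not reported here.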

Additional observations from a re-analysis of the deposited data

Results flagged for a closer look

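For 3 of the 41 tested members the direction turned between consecutive steps, both called in limma, from lower to higher, a course that 6.8% of all genes also took. Rab37 had a log2 fold change of 2.27 from 72 h to 120 h after -2.86 from untreated cells to 72 h, Rab43 had 1.57 after -1.68, and Rab11a had 0.53 after -0.64. In each case the steps share the 72 h libraries, and the difference between the steps was not itself tested. The groups are separate arms, with E2 restored in the 72 h group and not in the 120 h group. Rab3d was called in opposite directions against untreated cells, at -0.32 in the 40 h group and 1.47 in the 120 h group. The 40 h call of Rab3d held in only 11 of its 22 alternatives, and the difference between the 2 calls was not tested. With 2 libraries a group, no library could be checked as an outlier.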

How the results depend on the processing

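Of the Rab calls, 26 of 31 (120 h against untreated), 15 of 19 (72 h against untreated), 13 of 16 (72 h against 40 h), 23 of 30 (120 h against 72 h) and 0 of 5 (40 h against untreated) held under every alternative. For 120 h against untreated, 12 members were lower with no filter on low values and 4 with median-of-ratios scaling, which turned Rab10 to 0.021. At 40 h, members higher numbered 0 with no filter, 2 with only the 2 groups compared, 3 with array weights and 2 without the 120 h group, and members lower numbered 2 after quantile normalization. Members higher from 40 h to 72 h numbered 14 without the 120 h group (an alternative chosen after seeing the data), and members lower from 72 h to 120 h numbered 5 with the highest isoform. The summed Rab level at 120 h was 2.10 times untreated with median-of-ratios scaling and 1.57 times with the highest isoform. Leaving out 1 library at a time gave 6 to 13 members higher at 72 h against untreated (6 without untreated replicate 2 or without 72 h replicate 2), 0 to 2 higher and 0 to 6 lower at 40 h, and 6 to 14 higher at 72 h against 40 h (14 without either 120 h replicate). At 40 h no member was called higher without any 1 of the untreated, 24 h or 40 h libraries, and none lower without either untreated replicate or 40 h replicate 1. The cause of these shifts was not tested.

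With the replicate number as a block, 26 members were higher and 7 lower at 120 h, 12 and 10 at 72 h, 1 and 4 at 40 h, 0 and 0 at 24 h, 10 and 9 at 72 h against 40 h, and 27 and 3 at 120 h against 72 h, and no call was lost. Across genes, the deviations of same-numbered libraries had little correlation between untreated and the 72 h (0.0341), 40 h (0.0877) and 120 h (0.1285) groups. The correlation was 0.25 between untreated and 24 h, 0.364 between 40 h and 72 h and 0.639 between 72 h and 120 h. With 2 numbers in each group the pairing cannot be told from the shared number. Protein features were not run.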
